A study of Homo sapiens with 6 samples.

Results

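Aminoacyl-tRNA synthetases are the enzymes that load each tRNA with its amino acid before translation. The genes followed here were 19 cytosolic synthetases, 16 mitochondrial synthetases and the scaffold proteins AIMP1 and AIMP2, taken by symbol from the probe sets that the platform annotation pairs with exactly 1 gene. Of these 37 genes 36 were measured, among 18376 named genes in all, and AIMP2 was not analysed here. The data are 6 whole-transcript arrays of messenger RNA from PC3 cells, an established human line of aggressive, androgen-negative prostate cancer, with 3 arrays of cells ectopically expressing miR-34c, a microRNA of the p53-induced miR-34 family, and 3 of cells given a scramble mimic as the control. The series' design text speaks of miR-205 instead, but every sample label and the title say miR-34c, and the groups follow the labels. The labels give no dose, time or means of delivery, the cells are of a single line, and no label ties an array to its own culture, so p-values cover only the spread between arrays, whose number limits the precision.

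Each synthetase recognises an amino acid and its tRNAs, and animal cells carry separate nuclear genes for most cytosolic and mitochondrial enzymes. GARS1 and KARS1 serve both compartments from single genes and are counted here as cytosolic only. Mitochondria load glutamine by way of EARS2 and an amidotransferase. In the cytosol several synthetases sit in a large multisynthetase complex held together by the AIMP proteins, while others act outside it. Many cytosolic synthetase genes are known targets of ATF4, the transcription factor of the amino acid and integrated stress response, and WARS1 is also known as a gene induced by interferon gamma. The deposited values are log2 values relative to a reference for each probe set that the sources used here do not state. They show differences between arrays and not how abundant a transcript is, so levels of different genes are not compared.

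The synthetase genes changed little and in part. Of the 36 measured members 5 rose with miR-34c, none fell and 31 did not pass. A gene was called where limma gave it a p under 0.05 after Benjamini-Hochberg adjustment over all 18376 genes. That is 13.9% of the members, where 15.7% of all genes were called. All 5 were rises, where 7.67% of all genes were called higher and 8.01% lower. They were the cytosolic CARS1, WARS1 and FARSA and the mitochondrial NARS2 and WARS2, and the largest change was that of NARS2, at 1.46-fold. At an unadjusted limma p under 0.05, 9 members were higher and 0 lower, against 12.9% and 16.2% of all genes. Between 3 and 5 of the members rose when any 1 array was left out, with 3 when it was scramble replicate 1 or either of miR-34c replicates 2 and 3. The median log2 change was 0.04 over the members and -0.03 over all genes, and 20 members had a value above 0 and 16 below. With the arrays centred on their medians these were 0.07, -0.00306, 24 and 12, and with quantile normalization again 0.08, -0.000159, 25 and 11. Of all 18376 genes 7775 were above 0 in the deposited values, 9049 with the arrays centred and 9183 with quantile normalization again.

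**Figure D1:**
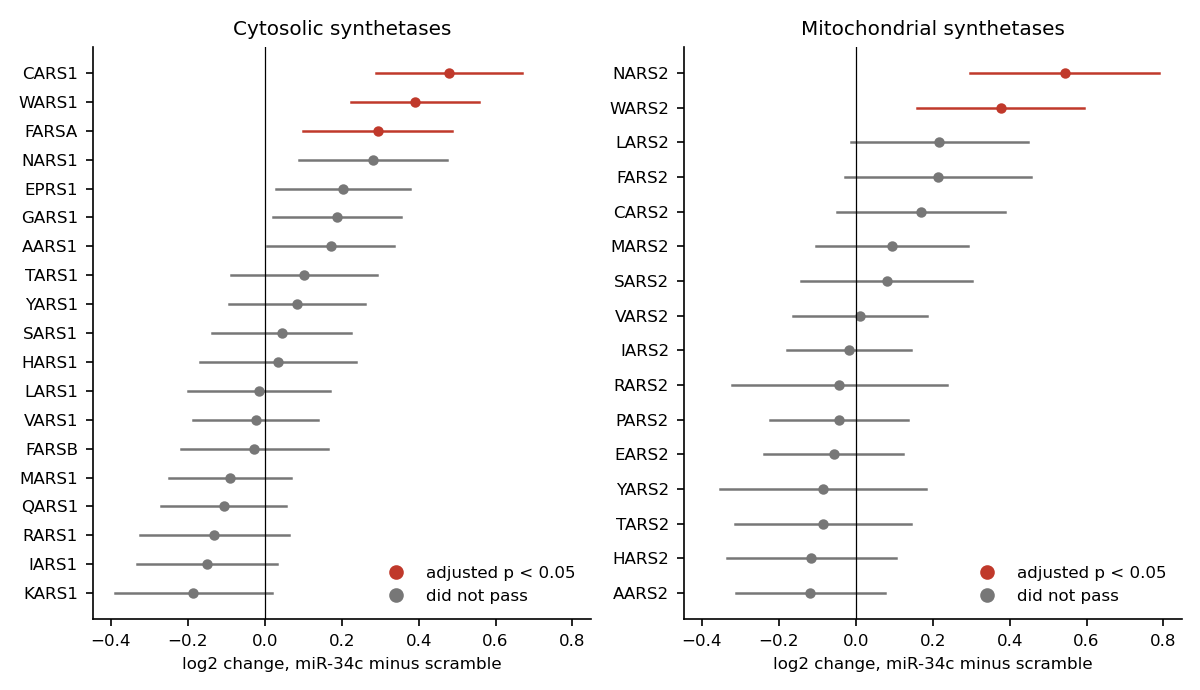
Log2 change (miR-34c minus scramble, horizontal axis) of the 19 cytosolic (left) and 16 mitochondrial synthetase genes (right), with points for the limma estimate, bars for its 95% confidence interval and 3 arrays per group. CARS1, WARS1, FARSA, NARS2 and WARS2, in red, passed at an adjusted p under 0.05, and the other estimates lie between -0.19 and 0.28.

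CARS1, the cytosolic cysteinyl-tRNA synthetase, had log2 values of 0.44, 0.44 and 0.39 on the miR-34c arrays and of -0.15, -0.03 and 0.02 on the scramble arrays. The 3 miR-34c values lay close together, all above the highest scramble value. CARS1 was 1.39-fold higher (log2 change 0.48 ± 0.08, SE, n = 3 per group, limma adjusted p = 0.00498), and it passed under all 14 other settings tried, with adjusted p-values from 0.00242 to 0.0253. WARS1, the cytosolic tryptophanyl-tRNA synthetase, had values of 0.07, 0.13 and 0.12 with miR-34c and of -0.26, -0.22 and -0.37 with the scramble mimic. Every miR-34c array was above every scramble array, and scramble replicate 3 was the lowest. WARS1 was 1.31-fold higher (log2 change 0.39 ± 0.07, SE, n = 3 per group, limma adjusted p = 0.00696), and it also passed under all 14 other settings (0.00279 to 0.0329).

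The promoters of CARS1 and WARS1, the cytosolic members that passed under every setting, are shown as the stretch from 250 bases before to 50 bases after the annotated start, 5′ to 3′ on the strand of the gene (RefSeq, GRCh38.p14). Each was searched on both strands for 3 motifs: TGATGNAA, the composite site of ATF4 and C/EBP factors, the core of the interferon-stimulated response element (TTTC, any 2 bases, TTTC), and TTCNNNGAA, the GAS site of STAT factors, which reads the same on both strands. Capitals mark matches, and no matches of different motifs overlapped.
CARS1 (chr11:3057374-3057673, minus strand): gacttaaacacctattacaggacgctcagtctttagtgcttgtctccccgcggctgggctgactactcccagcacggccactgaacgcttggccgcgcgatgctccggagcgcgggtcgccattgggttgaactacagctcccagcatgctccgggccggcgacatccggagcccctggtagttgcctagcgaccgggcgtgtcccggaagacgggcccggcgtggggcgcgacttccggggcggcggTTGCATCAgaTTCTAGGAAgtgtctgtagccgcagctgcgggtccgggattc
WARS1 (chr14:100376278-100376577, minus strand): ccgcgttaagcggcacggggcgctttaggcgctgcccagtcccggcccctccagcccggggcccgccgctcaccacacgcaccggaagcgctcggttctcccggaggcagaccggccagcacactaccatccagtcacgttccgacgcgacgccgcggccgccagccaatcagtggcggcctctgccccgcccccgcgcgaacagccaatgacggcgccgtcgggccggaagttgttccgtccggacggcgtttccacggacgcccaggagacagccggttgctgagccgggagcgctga
In CARS1 the composite site reads TTGCATCA on the gene's strand and runs across the annotated start, from 2 bases before it, and a GAS match begins at base 9 of the transcript. The WARS1 window held none of the 3 motifs, which says only that these letters are not in this window.

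The composite motif was found in 7 of the 32 member promoters in the table (21.9%, AIMP2 included), against 3.62% of all 35116 promoters of this length and 2.69% of the 22198 of protein-coding genes. LARS1, VARS1, YARS1, AARS2 and VARS2 were not in the promoter table. The other members with a match are shown with 20 bases on either side, the motif in capitals, since the position of the match beside the start is shared by several of them.
AARS1 (chr16:70289666-70289713, minus strand): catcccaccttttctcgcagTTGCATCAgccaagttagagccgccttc
IARS1 (chr9:92293683-92293730, minus strand): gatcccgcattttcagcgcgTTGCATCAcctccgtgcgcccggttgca
MARS1 (chr12:57488044-57488091, plus strand): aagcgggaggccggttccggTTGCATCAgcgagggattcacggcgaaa
NARS1 (chr18:57621795-57621842, minus strand): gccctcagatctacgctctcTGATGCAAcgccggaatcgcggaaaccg
TARS1 (chr5:33440947-33440994, plus strand): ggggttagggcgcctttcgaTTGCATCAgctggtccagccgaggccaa
YARS2 (chr12:32756067-32756114, minus strand): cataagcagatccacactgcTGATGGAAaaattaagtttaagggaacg
In IARS1 and MARS1 the match began 13 and 4 bases before the annotated start, and in TARS1 and NARS1 at bases 3 and 15 after it, while in AARS1 and YARS2 it lay 187 and 197 bases before it. The members that carry the motif did not share a direction: CARS1 rose, and the log2 changes of those that did not pass were 0.28 in NARS1, 0.17 in AARS1, 0.10 in TARS1, -0.08 in YARS2, -0.09 in MARS1 and -0.15 in IARS1. The interferon core motif was found in EARS2 alone among the members (3.57% of all promoters), and the GAS motif in CARS1, TARS1, PARS2 and WARS2 (12.5% of the members' promoters, 7.66% of all promoters). A match in a promoter is a description and was not tested against binding.

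FARSA, the alpha subunit of cytosolic phenylalanyl-tRNA synthetase, had log2 values of 0.36, 0.37 and 0.38 with miR-34c and of -0.01, 0.18 and 0.06 with the scramble mimic. The miR-34c values were the most uniform of the 5 members that rose, and the groups did not overlap. FARSA was 1.23-fold higher (log2 change 0.29 ± 0.09, SE, n = 3 per group, limma adjusted p = 0.0472). This call stood close to the threshold. It was lost with a robust prior (adjusted p = 0.0535), and without miR-34c replicate 1 (0.0829), 2 (0.129) or 3 (0.143) or scramble replicate 1 (0.152) or 3 (0.0918), with adjusted p-values from 0.0151 to 0.152 over all settings. FARSB, the beta subunit of the same enzyme, did not pass (log2 change -0.03, 95% interval -0.22 to 0.16, and above 0 with the arrays centred, quantile-normalized again or weighted). FARSA minus FARSB, within each array, was 0.37, 0.32 and 0.41 with miR-34c and 0.09, 0.06 and -0.01 with the scramble mimic, and thus larger on every miR-34c array than on any scramble array. This pair was chosen after its values were seen and the difference was not tested.

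NARS1, the cytosolic asparaginyl-tRNA synthetase, had values of 0.07, 0.16 and 0.17 with miR-34c and of -0.07, -0.29 and -0.09 with the scramble mimic. The groups did not overlap, but NARS1 did not pass (log2 change 0.28 ± 0.09, SE, limma adjusted p = 0.0537). It passed with the arrays centred on their medians (0.0463), with quantile normalization again (0.0394), with array weights (0.0424), with a robust prior (0.0428) and when only protein-coding genes were fitted (0.0468).

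**Figure D2:**
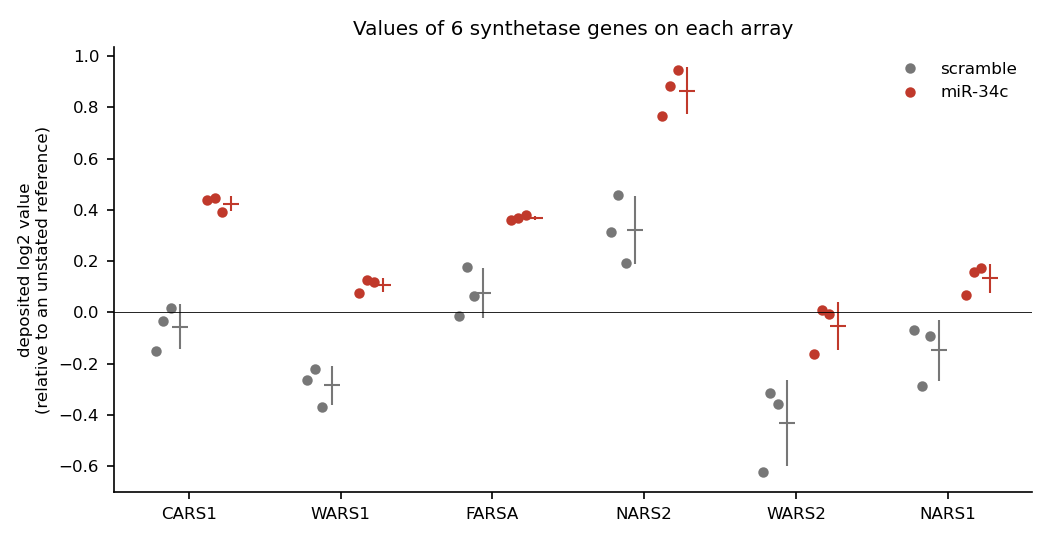
Deposited log2 values (vertical axis, relative to an unstated reference) of CARS1, WARS1, FARSA, NARS2, WARS2 and NARS1 on the 3 scramble arrays (grey) and the 3 miR-34c arrays (red), with the mean as a horizontal mark and the SD as a bar beside the points. For each of these genes all miR-34c arrays lie above all scramble arrays, and the difference between the group means is largest for NARS2.

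The other cytosolic synthetases outside the complex stayed within smaller ranges. GARS1, the glycyl enzyme, had a log2 change of 0.19 (95% interval 0.02 to 0.35) and AARS1, the alanyl enzyme, of 0.17 (0.01 to 0.34), and neither passed after adjustment over all genes. TARS1 for threonine (0.10), YARS1 for tyrosine (0.08), SARS1 for serine (0.04) and HARS1 for histidine (0.03) did not pass, nor did VARS1 for valine (-0.02), whose 2 probe sets hold the same values on every array and which was above 0 with the arrays centred or quantile-normalized again. Of the 12 cytosolic synthetases outside the complex, 10 had a value above 0, where 7775 of all 18376 genes did. It was 12 with the arrays centred on their medians (9049 of all genes) or quantile-normalized again (9183). CARS1, WARS1, FARSA, NARS1, GARS1 and AARS1, 6 of the 12, lay higher on every miR-34c array than on any scramble array (50%). Of all genes 15.3% did. The count was 8 (66.7%) with the arrays centred (19.2% of all genes) or quantile-normalized again (18.9%).

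The cytosolic synthetases that belong to the multisynthetase complex had other values. None of the 7 measured passed in limma, where 15.7% of all genes were called, a share at which few of 7 genes would be. At an unadjusted limma p under 0.05 there was 1, EPRS1, which was higher. Of all genes 12.9% were higher and 16.2% lower at that limit. EPRS1, the double enzyme for glutamate and proline, had log2 values of 0.06, 0.09 and 0.10 with miR-34c and of -0.22, -0.06 and -0.08 with the scramble mimic, a log2 change of 0.20 (95% interval 0.03 to 0.38, limma adjusted p = 0.112). The groups did not overlap, and EPRS1 passed under repeated quantile normalization (0.0428) and under array weights (0.0441).

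The other 6 of the complex had values below 0: KARS1 for lysine (-0.19), IARS1 for isoleucine (-0.15), RARS1 for arginine (-0.13), QARS1 for glutamine (-0.11), MARS1 for methionine (-0.09) and LARS1 for leucine (-0.01, which was 0.02 with the arrays centred, 0.04 with quantile normalization again and 0.0052 under array weights). When any 1 array was left out KARS1 ran from -0.26 to -0.12 and RARS1 from -0.18 to -0.05, the smallest RARS1 difference being that without miR-34c replicate 1. MARS1 had values of -0.04, -0.05 and -0.05 with miR-34c and of 0.04, 0.05 and 0.04 with the scramble mimic, a small difference with very tight groups. IARS1, MARS1, QARS1 and RARS1 each lay lower on every miR-34c array than on any scramble array, 4 of the 7, where 18.9% of all genes did. Without overlap in the other direction stood 15.3% of all genes and, among these 7, EPRS1. The count of 4 fell to 1, MARS1, with the arrays centred on their medians (16.4% of all genes) and to 2, MARS1 and RARS1, with quantile normalization again (16.7%). The median log2 change was -0.11 over these 7 genes and 0.14 over the 12 outside the complex. Whether the difference between these sets exceeds what other sets of this size show was not tested. AIMP1, the scaffold protein that binds RARS1 in the complex, had values of -0.33, -0.000904 and -0.04 with miR-34c and of -0.17, -0.19 and -0.19 with the scramble mimic. The groups overlapped through miR-34c replicate 1, and AIMP1 did not pass (log2 change 0.06, 95% interval -0.15 to 0.27).

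**Figure D3:**
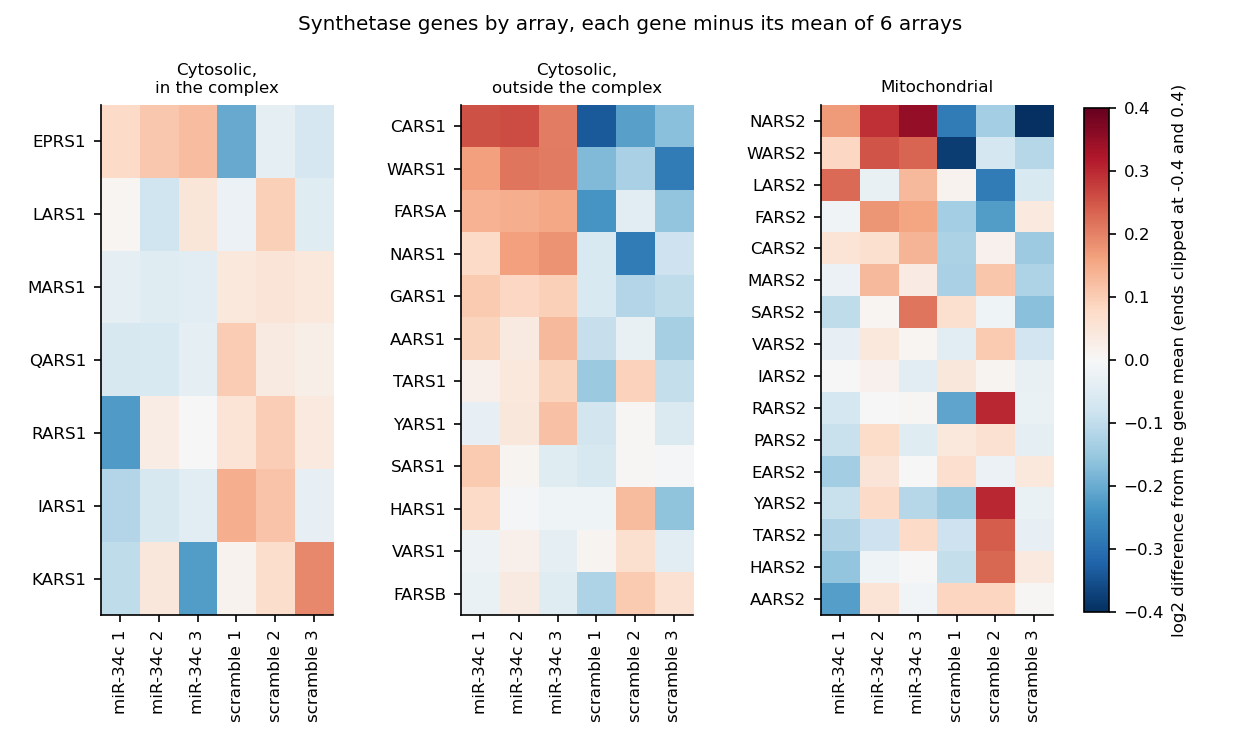
Synthetase genes (rows, ordered by log2 change within each panel) on the 6 arrays (columns), coloured by the log2 difference from the gene's own mean over the arrays, for 7 cytosolic enzymes of the complex, 12 cytosolic enzymes outside it and 16 mitochondrial enzymes. CARS1, WARS1, FARSA, NARS1, NARS2 and WARS2 are red on the miR-34c arrays and blue on the scramble arrays, and RARS2, YARS2, TARS2 and HARS2 stand highest on scramble replicate 2.

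Among the mitochondrial synthetases 2 of 16 rose, none fell and 14 did not pass, or 12.5%, beside 3 of 19 cytosolic ones (15.8%), shares close to the 15.7% of all genes called, while 7.67% of all genes were called higher. At an unadjusted limma p under 0.05 the same count of 2 was higher and 0 were lower, against 12.9% and 16.2% of all genes. NARS2, the mitochondrial asparaginyl enzyme, had log2 values of 0.77, 0.89 and 0.95 with miR-34c and of 0.31, 0.46 and 0.19 with the scramble mimic. The groups were well apart, although each spread more than those of CARS1. NARS2 was 1.46-fold higher (log2 change 0.54 ± 0.11, SE, n = 3 per group, limma adjusted p = 0.00942) and passed under all 14 other settings (0.00362 to 0.0433).

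WARS2, the mitochondrial tryptophanyl enzyme, had values of -0.16, 0.01 and -0.01 with miR-34c and of -0.62, -0.31 and -0.36 with the scramble mimic. Scramble replicate 1 was far the lowest, and miR-34c replicate 1 the lowest of its group, though above all scramble arrays. WARS2 was 1.30-fold higher (log2 change 0.38 ± 0.10, SE, n = 3 per group, limma adjusted p = 0.0269), a call lost without miR-34c replicate 2 (adjusted p = 0.0998) or 3 (0.0933) or scramble replicate 1 (0.0797). Over all settings its adjusted p ran from 0.00722 to 0.0998. In the main fit tryptophan was thus the amino acid whose cytosolic and mitochondrial enzymes both passed. For asparagine NARS2 passed in that fit and NARS1 did not, with NARS1 close to the threshold (limma adjusted p = 0.0537). NARS1 passed in 5 of the 14 other settings and NARS2 in all 14, so in those 5 both asparagine enzymes passed as well. WARS2 passed in 11 of the 14. For cysteine CARS1 passed and the mitochondrial CARS2 did not (log2 change 0.17, 95% interval -0.05 to 0.39), although the CARS2 groups did not overlap. These pairings were read after the values were seen, and none of the differences within a pair was tested.

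LARS2 (log2 change 0.22, 95% interval -0.01 to 0.45) and FARS2 (0.21, -0.03 to 0.45), the mitochondrial leucyl and phenylalanyl enzymes, did not pass, and their groups overlapped. MARS2 (0.09), SARS2 (0.08) and VARS2 (0.01) lay nearer to 0. The other VARS2 probe set gave 0.03. AARS2 (-0.12), HARS2 (-0.12), TARS2 (-0.09), YARS2 (-0.08), EARS2 (-0.06), PARS2 (-0.04), RARS2 (-0.04) and IARS2 (-0.02) were below 0 and did not pass, and of these IARS2 was above 0 with the arrays centred or quantile-normalized again and RARS2 with quantile normalization again or array weights. RARS2, the mitochondrial arginyl enzyme, had the widest standard error of the members (0.13), with scramble values of 0.01, 0.52 and 0.19 against 0.15, 0.22 and 0.23 with miR-34c. Scramble replicate 2, the array with the highest median over all probe sets (0.06), held the highest RARS2, YARS2, TARS2 and HARS2 values. Its part in these values was tested only by leaving it out, when RARS2, YARS2, TARS2 and HARS2 had log2 changes of 0.10, 0.05, 0.01 and -0.03.

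Cytosolic and mitochondrial enzymes as groups differed by about the same amount between the conditions, with GARS1 and KARS1, which serve both compartments, counted as cytosolic. The mean log2 value over the 19 cytosolic genes was 0.04, 0.07 and 0.06 on the miR-34c arrays and -0.05, 0.02 and -0.04 on the scramble arrays. Over the 16 mitochondrial genes it was -0.03, 0.07 and 0.07 with miR-34c and -0.08, 0.05 and -0.07 with the scramble mimic. The cytosolic means did not overlap between the groups and the mitochondrial means did. The cytosolic mean minus the mitochondrial mean was 0.02 ± 0.05 with miR-34c and 0.01 ± 0.03 with the scramble mimic (SD, n = 3), a difference of 0.01 between the groups that was smaller than the spread between arrays. By the structural classes of the catalytic domain, 3 of 18 class I enzymes rose (16.7%, CARS1, WARS1 and WARS2) and 2 of 16 class II enzymes (12.5%, FARSA and NARS2). EPRS1, which holds a domain of each class, was left out. Both shares stand close to the 15.7% of all genes called, while 7.67% of all genes were called higher.

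Other genes that feed or use charged tRNA were examined from a list, of which 12 were measured. EEF1E1 and AARSD1 were not analysed here. Of the 12, 2 rose, 1 fell and 9 did not pass, where 7.67% of all genes were called higher and 8.01% lower, and the median log2 change was -0.04. TRNT1, the enzyme that adds the CCA end to which the amino acid is attached, had log2 values of 0.04, -0.07 and -0.12 with miR-34c and of 0.55, 0.68 and 0.45 with the scramble mimic. It was lower on every miR-34c array, at 65.7% of the scramble level (log2 change -0.61 ± 0.10, SE, n = 3 per group, limma adjusted p = 0.00293), and passed under all 14 other settings (0.00143 to 0.0195).

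GATB, a subunit of the amidotransferase that completes mitochondrial glutaminyl-tRNA, was 1.30-fold higher (limma adjusted p = 0.0301), a call lost without miR-34c replicate 1 (0.071), 2 (0.099) or 3 (0.0656) or scramble replicate 1 (0.099) or 3 (0.0893). The partner subunits GATC (0.08) and QRSL1 (-0.06) did not pass. EEF1A2, a form of the factor that brings charged tRNA to the ribosome, was 1.23-fold higher (adjusted p = 0.037), lost without miR-34c replicate 1 (0.0843), 2 (0.0796) or 3 (0.127) or scramble replicate 1 (0.061) or 3 (0.0943). DTD1, a deacylase that clears tRNA loaded with the wrong form of an amino acid, did not pass (log2 change -0.12).

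Values of ATF4 and genes it is known to drive stand beside these. Of 26 measured 6 rose, none fell and 20 did not pass (23.1%), with a median log2 change of 0.09, and at an unadjusted limma p under 0.05 there were 9 higher and 3 lower. Of all genes 7.67% were called higher and 8.01% lower, and 12.9% and 16.2% at an unadjusted p. ATF4 itself did not pass (log2 change -0.20, 95% interval -0.42 to 0.02, and -0.09 with quantile normalization again). DDIT4, an inhibitor of mTORC1, was 2.59-fold, ATF3, a stress-induced transcription factor, 2.39-fold, DDIT3, which encodes CHOP, 1.80-fold and PPP1R15A, a phosphatase subunit that reverses eIF2alpha phosphorylation, 1.48-fold higher, and of these PPP1R15A had the largest limma adjusted p (0.00204). The log2 changes of the 20 that did not pass ran from -0.29 to 0.29. Of the 4 kinases of eIF2alpha, EIF2AK2, the double-stranded RNA sensor PKR, was 2.17-fold higher (limma adjusted p = 1.58e-05). EIF2AK1, the haem-regulated kinase, fell to 79.4% of the scramble level (adjusted p = 0.0187), a call lost without miR-34c replicate 1 (0.072) or scramble replicate 1 (0.067). EIF2AK4, the sensor of uncharged tRNA known as GCN2 (log2 change 0.0032), and EIF2AK3 (-0.0031) did not pass.

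Genes typical of the interferon gamma response were set beside WARS1. Of 14 measured 7 rose, none fell and 7 did not pass, and at an unadjusted limma p under 0.05 there were 10 higher and 0 lower. Of all genes 7.67% were called higher, and 12.9% were higher at an unadjusted p. The median log2 change was 0.47. IDO1, which degrades tryptophan, the amino acid that WARS1 and WARS2 load, was 4.66-fold higher. TAP1, a peptide transporter, was 3.27-fold, GBP4, a guanylate-binding protein, 2.78-fold and PSMB9, an immunoproteasome subunit, 2.58-fold higher, and of these PSMB9 had the largest limma adjusted p (6.23e-05). The log2 changes of the 7 that did not pass ran from -0.09 to 0.43. The part of these genes in the synthetase values was not tested.

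**Figure D4:**
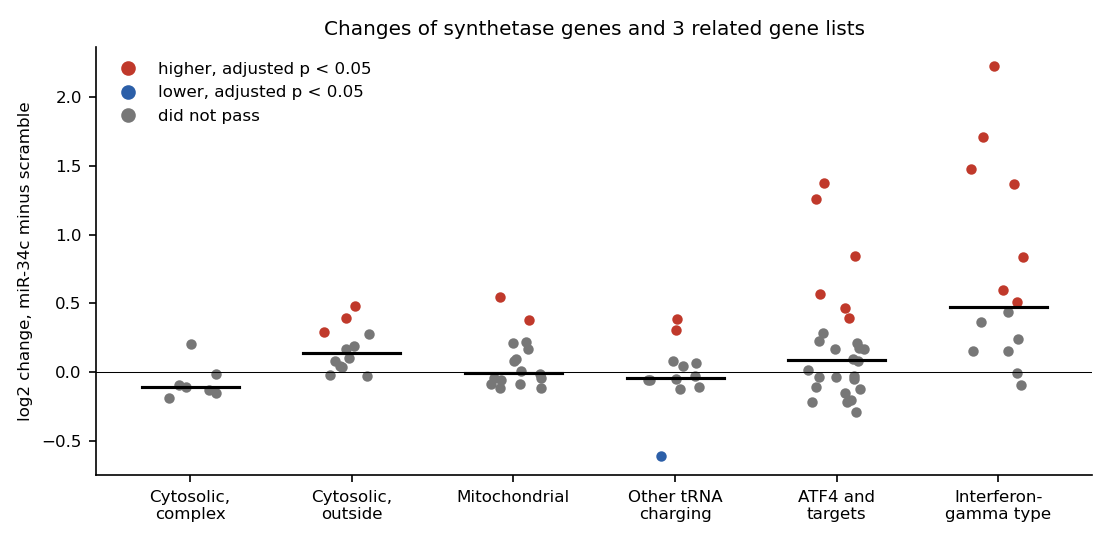
Log2 change (miR-34c minus scramble, vertical axis) of each measured gene in 6 groups: cytosolic synthetases of the complex (7) and outside it (12), mitochondrial synthetases (16), other genes of tRNA charging (12), ATF4 and its targets (26) and interferon gamma type genes (14). Red and blue points passed as higher or lower in limma, grey points did not, and black lines mark the medians, which run from -0.11 for the complex to 0.47 for the interferon gamma type genes.

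Over all probe sets the correlation between arrays was 0.77 to 0.88 within a group and 0.56 to 0.70 between groups, and the array medians lay between -0.03 and 0.06. Markers of other cell types were read as changes, since centred values give no summed level and cannot show which markers are absent. None of 9 leukocyte markers passed in limma, with 0 also at an unadjusted p under 0.05. Among 8 fibroblast markers PDGFRA fell (log2 change -0.48) and the other 7 did not pass. Among 6 endothelial markers PECAM1 fell (-1.17, or -0.74 with the mean of its probe sets). The other 5 did not pass, with VWF (0.03), CDH5 (0.10) and CLDN5 (0.01) above 0 and KDR (-0.07) and TEK (-0.09) below. Of 8 prostate epithelial markers KRT8 (0.30) and CDH1 (0.40) rose, KRT8 not without miR-34c replicate 2 (adjusted p = 0.123) or 3 (0.129) or scramble replicate 2 (0.0686) or 3 (0.0994), and CDH1 not without miR-34c replicate 1 (0.0635) or 3 (0.102) or scramble replicate 1 (0.0903) or 3 (0.071). The shares called were 0% of the leukocyte, 12.5% of the fibroblast, 16.7% of the endothelial and 25% of the prostate epithelial markers. Of all genes 15.7% were called. The part of these markers in the results was not tested. In bulk RNA, fewer cells that express a gene and less of its RNA per cell cannot be told apart.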

How the data were processed

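Total RNA (100 ng per sample) was labelled with a whole-transcript kit, per the labels' protocols. The deposited log2 values were made by the authors with RMA in Affymetrix Expression Console, per the submitters' processing notes, which give no version. RMA corrects background, quantile-normalizes arrays and summarises probes. The values lie around 0 (from -2.86 to 3.77), so a reference was subtracted per probe set in a step that no source describes, and dim probe sets could not be set aside.

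Of 28868 probe sets 19309 had exactly 1 symbol in GEO's platform annotation, giving 18376 genes. Where a gene had several, the 1 with the highest mean value was kept, which concerns 2 members and 685 genes in all. Since the values are centred, the probe set kept need not be the brightest, and the trend named next also rests on centred means. Without the trend 2867 genes were called, and 5 members were called higher. limma 3.58.1 (R 4.3.3) was fitted with lmFit on the group and eBayes with a trend, and checked on simulated data. P-values were adjusted by Benjamini-Hochberg over all genes, with a threshold of 0.05. SE is limma's moderated standard error. The members and the lists were chosen with earlier results of these data known. Every measured member is named. Of each other list up to 4 genes with the smallest adjusted p are named, always with ATF4 and DDIT3, and any other gene is marked as chosen after its value was seen. The partner subunits of GATB and the markers were also named after their values were seen. Promoters were searched with Python 3.11.15. Other settings were a replicate block, other priors, array centring, quantile normalization, array weights, the mean of probe sets, protein-coding genes only, and each array left out.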

Additional observations from a re-analysis of the deposited data

How the results depend on the processing

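With any 1 array left out, the count of all genes called ran from 1655 to 2652, that of all members called higher from 3 to 5, that of cytosolic synthetases from 2 to 3 and that of mitochondrial ones from 1 to 2, and 0 synthetases were called lower under each setting tried. The count of cytosolic rises was 5 with repeated quantile normalization and also 5 under array weights, where EPRS1 and NARS1 passed as well. The calls of CARS1, WARS1 and NARS2 held under all 14 settings. Log2 changes near 0 that did not pass changed sign with each array centred on its median: FARSB 0.00418, LARS1 0.0162, VARS1 0.00769, IARS2 0.0144, EIF2AK3 0.028. They did so with quantile normalization again in these genes: FARSB 0.0154, LARS1 0.0399, VARS1 0.00137, IARS2 0.0127, RARS2 0.0336, EIF2AK3 0.0511. They did so with array weights in these genes: FARSB 0.0166, LARS1 0.00518, RARS2 0.0555, EIF2AK3 0.0105. When any 1 array was left out, the lowest and highest log2 changes of genes whose sign turned were -0.0721 to 0.0663 for EIF2AK3, -0.0433 to 0.0295 for LARS1, -0.0239 to 0.0668 for VARS2, -0.0425 to 0.056 for EIF2AK4, -0.0364 to 0.00208 for IARS2, -0.00682 to 0.15 for SARS2, -0.0954 to 0.018 for FARSB, -0.0498 to 0.00283 for VARS1, -0.16 to 0.0978 for RARS2, -0.15 to 0.0147 for TARS2, -0.18 to 0.0456 for YARS2, -0.038 to 0.11 for HARS1, -0.10 to 0.0185 for QRSL1. None of these genes passed under the settings that turned the sign, and the cause was not tested. The replicate numbers did not pair the arrays: same-numbered arrays had deviations from their group means that correlated at -0.00507, 0.12 and -0.09, and 2 of 6 arrays correlated best with their own number. With the number as a replicate block FARSA (adjusted p = 0.0702), EEF1A2 (0.0605) and KRT8 (0.0655) did not pass, and the cytosolic rises numbered 2 and all calls 2675. An array left out leaves fewer samples in the fit. The unknown brightness of the probe sets limits what a small change in a dim gene can show.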
